A study of Homo sapiens with 8 samples.

Results

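PRKRA and 9 further genes of the double-stranded RNA and microRNA machinery are described here, 10 of the 30755 gene symbols of the expression table. PRKRA was chosen by its measured fold change: its RNA fell further than that of HNF4A in this same comparison. The other 9, DICER1, TARBP2, DROSHA, DGCR8, AGO1, AGO2, EIF2AK2, ADAR and XPO5, were listed for what their proteins do. All 10 were chosen with earlier results of these data known. As its own fall chose PRKRA, the fall of PRKRA and of HNF4A is given as a description, without a test. The 9 partners were tested. All 10 genes had a row in the table and all 10 passed the filter on low values, which asked for 10 or more normalized counts on average.

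The RNA came from ESO26, a line of oesophageal adenocarcinoma cells kept in RPMI-1640 with serum. One group is cells with siRNA knockdown of HNF4A, here siHNF4A (2 libraries), and the other is control cells (2 libraries). The series' design text speaks of triplicates, and the 2 libraries per group were all that was analysed here. The labels do not say what the control cells received or how long after transfection the RNA was taken, and they do not say whether the libraries of a group came from separate cultures, so the p-values measure the spread between these libraries only. A small interfering RNA (siRNA) lowers the mRNA it matches, and HNF4A is a DNA-binding nuclear receptor of liver and gut epithelium. The sequence of the siRNA is not given in the sources used here, and whether it matches other mRNAs, PRKRA among them, was not tested. A normalized count is the authors' scaled read count for a gene, and it was not divided by gene length, so levels are compared between libraries and not between genes.

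PRKRA encodes PACT, a small protein with double-stranded RNA-binding domains. It is known as an activator of PKR, the kinase encoded by EIF2AK2 that halts translation by phosphorylating eIF2 alpha, and as a binding partner of Dicer. MicroRNAs are cut from nuclear hairpins by DROSHA with DGCR8, carried to the cytoplasm by exportin-5 (XPO5), cut again by DICER1 in complexes with TARBP2 or PACT, and loaded into Argonaute proteins such as AGO1 and AGO2. TARBP2 is the closest relative of PACT and is known to inhibit PKR, and ADAR edits adenosine to inosine in double-stranded RNA.

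Several facts of the whole table bear on these values. Normalized counts summed to between 17912507 and 18613685 per library. The sequencing depth is unknown. Genes listed at 0 numbered 5479 and 5640 in the control libraries and 4260 and 4362 in the knockdown libraries, so this number moves with the groups. The low genes below went both ways, with OSBPL6 and KRT14 higher and KRT5 and FKBP7 lower in the knockdown. Of the 30 microRNA genes tested, 20 had a log2 fold change above 0 and 10 below. The part of the number of genes at 0 in those values was not tested. HNF4A itself had 4129 and 3937 normalized counts in the control libraries and 1140 and 932 in the knockdown libraries, a mean of 25.7% of control. All 7 markers of columnar epithelium that were examined (KRT8, KRT18, KRT19, EPCAM, CDH1, CDH17 and VIL1) were present, and they summed to between 94007 and 102106 normalized counts per library. Of these 7 markers 5 were called (71.4%, against 14.1% of all genes tested), with KRT8 (log2 fold change -0.43), KRT18 (-0.51) and EPCAM (-0.29) lower and KRT19 (0.22) and CDH17 (0.20) higher. Of 10 markers of squamous epithelium, fibroblasts, immune cells and endothelium 6 had a row, and their sum was 267 and 184 (control) and 252 and 317 (knockdown). PDGFRA, of fibroblasts, and PTPRC, of immune cells, were listed at 0 in control replicate 1 and at 3.51 or less in the others, and KRT14, of squamous epithelium, was at 0.64 and 2.29 in the control and at 12.2 and 25.7 in the knockdown. KRT5, also of squamous epithelium, went the other way, with 32.6 and 12.1 in the control and 6.14 and 10.5 in the knockdown. COL1A1, of fibroblasts, made up most of the sum, with 179 and 108 in the control and 202 and 212 in the knockdown. CD68, like PTPRC of immune cells, was found in all libraries, with 54.6 and 57.1 in the control and 28.5 and 64.4 in the knockdown. The part of such cells in the results was not tested.

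PRKRA had 1588 and 1620.1 normalized counts in the control libraries and 299 and 276 in the knockdown libraries. The means were 1604 ± 22.6 and 287 ± 16.3 (SD, n = 2 in each group), so 17.9% of the control level was left. Both knockdown libraries lay far below both controls, and within a group replicate 2 minus replicate 1 was 0.029 (control) and -0.12 (siHNF4A) on the log2 scale. The log2 fold change was -2.48 on log2(normalized count + 1). It was the largest fall among the 10918 genes that averaged 100 or more normalized counts. Just behind it stood HNF4A at -1.97, the value that PRKRA had to exceed in order to be listed, and KIF26A at -1.97. Over all 15577 genes tested, 29 (0.19%) had a larger change than PRKRA in either direction. Across the 13 alternative fits the value for PRKRA lay between -2.53 and -2.42. PRKRA is on chromosome 2 and overlaps the long non-coding RNA gene CHROMR, which was not analysed here, and the sources used here do not give the strand setting of the counting.

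The sequence before the annotated start of PRKRA is shown because this is the member that moved most, beside that of EIF2AK2, which encodes its kinase partner and lies on the same chromosome. Each run holds 250 bases before to 20 bases after the outermost start in the RefSeq table (GRCh38.p14), 5′ to 3′ on the gene's strand. PRKRA is at chr2:178451156-178451425 and EIF2AK2 at chr2:37156961-37157230, both on the minus strand. Capitals mark matches on either strand to GGGCGG, the core of the GC box that Sp1-type factors bind, and in EIF2AK2 also to the core of the interferon-stimulated response element, searched as GAAA, then any 2 bases, then GAAA.
PRKRA: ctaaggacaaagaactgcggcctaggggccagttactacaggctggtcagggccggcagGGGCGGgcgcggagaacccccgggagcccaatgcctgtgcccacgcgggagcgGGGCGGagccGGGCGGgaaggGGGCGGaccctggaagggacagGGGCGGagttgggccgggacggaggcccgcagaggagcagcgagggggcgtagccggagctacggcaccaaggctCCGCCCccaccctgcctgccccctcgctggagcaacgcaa
EIF2AK2: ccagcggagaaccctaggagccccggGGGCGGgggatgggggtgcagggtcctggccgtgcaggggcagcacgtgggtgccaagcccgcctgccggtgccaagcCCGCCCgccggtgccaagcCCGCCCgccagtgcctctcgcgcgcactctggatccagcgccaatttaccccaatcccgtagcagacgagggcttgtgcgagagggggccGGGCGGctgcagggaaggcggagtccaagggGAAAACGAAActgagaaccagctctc

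The PRKRA window was 73.3% G and C and held 6 matches to GGGCGG, and the EIF2AK2 window was 70.7% G and C and held 4. The median over all 35116 windows of this length was 58.1% G and C, and 43.7% of them held GGGCGG. The single match to the interferon-response core in the EIF2AK2 window began 6 bases before the annotated start, and 3.3% of all windows held one. RefSeq held, for 9 of the 10 members, 1 or more windows, 19 in all. No window for AGO2 was in the table used. In these 19 windows neither CAAAGTNCA, a motif of HNF4 type, nor a direct repeat of AGGTCA with 1 base between, which many nuclear receptors bind, was found on either strand, against 1.01% and 0.0228% of all windows. No match says only that these letters are not in these windows. The HNF4A peaks were not placed relative to these genes, since the submitters' processing notes name hg19 and no annotation of that build was used here.

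Of the 9 partners 3 fell and 6 did not pass the test, with a threshold of 0.05 on the adjusted p of limma, and none rose. Over all 15577 genes tested, of which 2202 were called, 8.11% were called lower, 6.02% higher and 14.1% in either direction. The median log2 fold change of the 9 partners was -0.11, against -0.0073 over all genes tested. Over the 12111 genes that averaged 50 or more, as all 9 partners do, it was -0.027. The largest change among the partners was a loss of 19.8% (AGO2). In 7 of the 9 partners the knockdown libraries did not overlap the control libraries, as in 57% of all genes tested. The smallest p that exact two-sided permutation allows for 1 gene, with 2 libraries against 2, is 0.333, and the limma values rest on a spread shared across genes. The count of 3 became 1 without control replicate 1, 1 without siHNF4A replicate 1 and 1 without siHNF4A replicate 2, and 1 after quantile normalization.

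**Figure D1:**
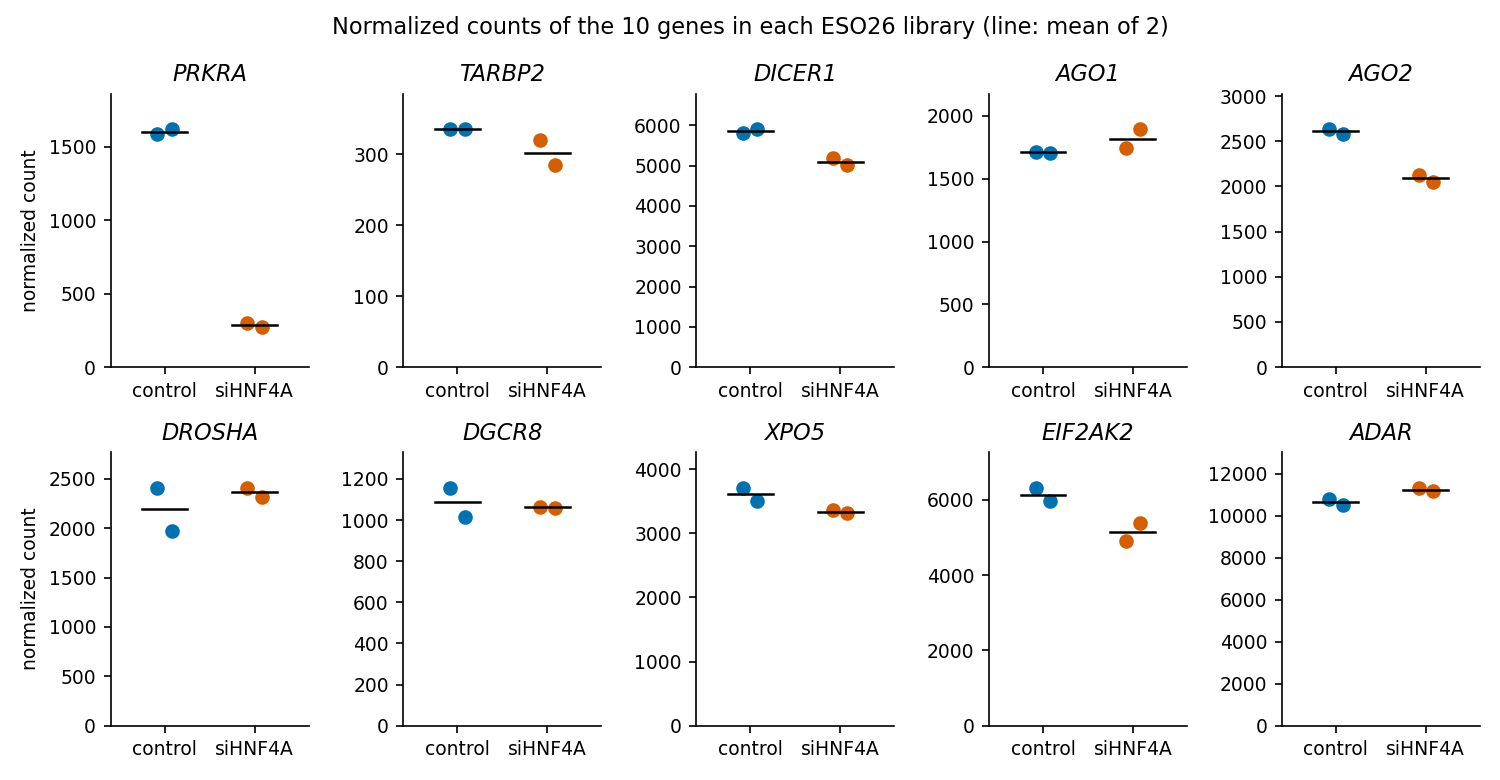
Normalized counts of each of the 10 genes (vertical axes, each from 0) in the 2 control and 2 siHNF4A libraries of ESO26, with 1 point per library and a line at the mean of 2. PRKRA drops to between 276 and 299 from 1588 or more, while the other panels change by less than 20% of their control mean.

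TARBP2, the relative of PACT that also binds Dicer, had 335.4 and 335.1 normalized counts in the control libraries and 320 and 284 in the knockdown libraries. Both knockdown libraries were slightly lower than both controls. The log2 fold change of -0.15 had a 95% interval from -0.44 to 0.13 and was not past the threshold (adjusted p = 0.475 in limma). It was -0.24 without siHNF4A replicate 1 and -0.069 without siHNF4A replicate 2. TARBP2 overlaps MAP3K12 in RefSeq, which had 50.6 and 9.74 in the control and 30.9 and 68.1 in the knockdown.

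DICER1, the ribonuclease that cuts hairpins to microRNA length, had 5808 and 5901 normalized counts in the control libraries and 5185 and 5004 in the knockdown libraries. The knockdown libraries were both lower, at 87.0% of the control mean. DICER1 fell by 0.20 on the log2 scale with a standard error of 0.057 (adjusted p = 0.0420 in limma). This call was lost when any 1 of the 4 libraries was left out (adjusted p between 0.0584 and 0.228), after quantile normalization (0.0908), without the filter (0.118) and without the variance trend (0.256). The antisense gene DICER1-AS1 overlaps it and had 51.8 and 61.9 normalized counts in the control and 80.5 and 69.1 in the knockdown, which was not past the threshold (adjusted p = 0.324 in limma).

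The Argonaute genes, which encode the proteins that hold the microRNA, gave different values. AGO2, the member with slicing activity, had 2634 and 2584 normalized counts in the control and 2133 and 2054 in the knockdown. The groups were well apart, and AGO2 fell by 0.32 on the log2 scale (standard error 0.067, adjusted p = 0.0125 in limma). This was the largest change among the 9 partners, and 31.8% of all genes tested had a larger one in either direction. The call was lost without siHNF4A replicate 2 (adjusted p = 0.0854), without the filter (0.0584) and without the variance trend (0.157). AGO1 had 1712 and 1705 normalized counts in the control and 1741 and 1894 in the knockdown, a log2 fold change of 0.088 with a 95% interval from -0.080 to 0.26 (adjusted p = 0.491 in limma). It was 0.15 without siHNF4A replicate 1, 0.027 without siHNF4A replicate 2 and 0.13 after quantile normalization. The difference between AGO1 and AGO2 was not tested.

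The nuclear members did not pass the test. DROSHA, the ribonuclease of the Microprocessor, had 2411 and 1972 normalized counts in the control and 2411 and 2321 in the knockdown. Control replicate 2 stood alone at the low end and the groups overlapped. The log2 fold change of DROSHA was 0.12, with a 95% interval from -0.092 to 0.33 (adjusted p = 0.454 in limma), and leaving out control replicate 1 gave 0.26, and control replicate 2 -0.028. DGCR8, its RNA-binding partner, had 1157 and 1014 in the control and 1062 and 1061 in the knockdown. The knockdown libraries lay between the controls, with a log2 fold change of -0.030 and a 95% interval from -0.23 to 0.17 (adjusted p = 0.865 in limma). DGCR8 was at -0.13 without control replicate 2, and its sign turned to 0.065 without control replicate 1 and to 0.0091 after quantile normalization.

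XPO5, which carries hairpins out of the nucleus, had 3713 and 3503 normalized counts in the control and 3361 and 3311 in the knockdown. Both knockdown libraries were lower, and the log2 fold change of -0.11 had a 95% interval from -0.25 to 0.029 (adjusted p = 0.275 in limma). It was -0.071 without control replicate 1 and -0.064 after quantile normalization. XPO5 overlaps POLR1C, a subunit gene of RNA polymerases I and III, which fell from 877 and 780.5 to 617 and 623 (log2 fold change -0.42, adjusted p = 0.0211 in limma). Reads of such overlapping genes cannot be told apart where the counting did not use the strand.

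EIF2AK2, the gene of the PKR kinase that PACT activates, had 6324 and 5961 normalized counts in the control and 4898 and 5398 in the knockdown. Both knockdown libraries were lower, and replicate 2 minus replicate 1 was 0.14 in the knockdown and -0.085 in the control on the log2 scale. EIF2AK2 fell by 0.26 on the log2 scale with a standard error of 0.066 (adjusted p = 0.0309 in limma). The call was lost without control replicate 1 (adjusted p = 0.0684), without siHNF4A replicate 1 (0.212), after quantile normalization (0.0894), without the filter (0.130) and without the variance trend (0.245). ADAR, the editing enzyme, had 10814 and 10508.5 normalized counts in the control and 11328 and 11150.4 in the knockdown. Both knockdown libraries were higher by a small margin, with a log2 fold change of 0.076 and a 95% interval from -0.037 to 0.19 (adjusted p = 0.361 in limma), and it was 0.13 after quantile normalization. Both genes are known to respond to interferon, and their values went opposite ways here, a difference that was not tested.

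**Figure D2:**
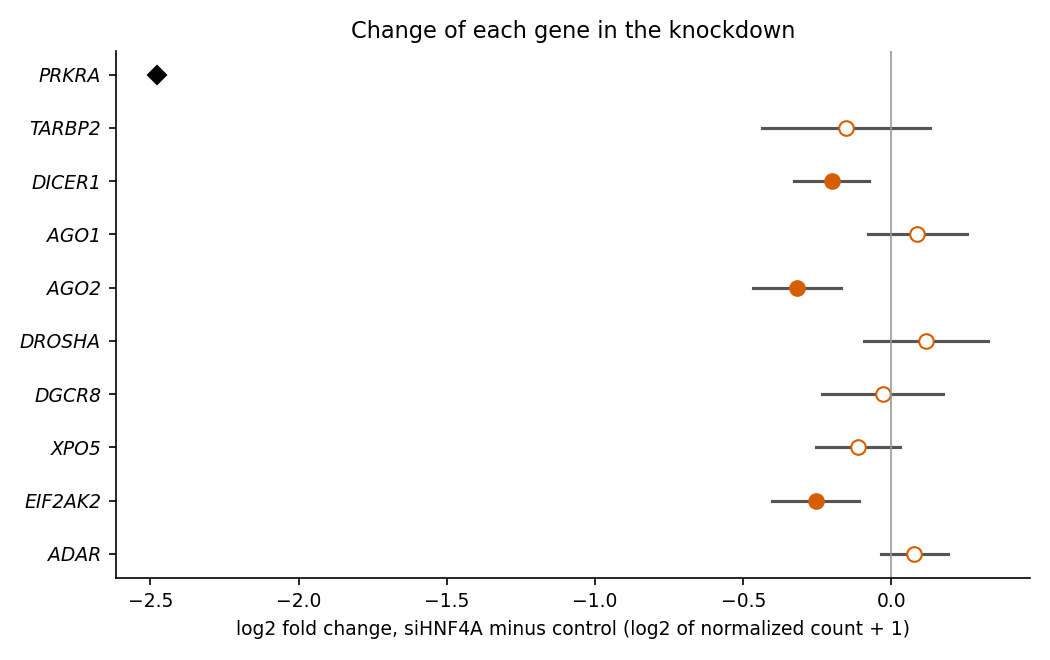
Log2 fold change of each gene, siHNF4A minus control (horizontal axis, log2 of normalized count + 1), with 95% intervals from limma for the 9 partners; filled points passed the threshold and open points did not. PRKRA, a diamond without an interval because it was chosen for its fall, stands at -2.48, and the partners lie between -0.32 and 0.12.

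Genes that work beside the members were then counted, from lists that hold none of the 10. Among 17 genes of nuclear processing and export, 16 were tested, 1 rose and 2 fell, with a median log2 fold change of 0.00088. SAFB2, an RNA- and DNA-binding nuclear scaffold protein, rose from 1217 and 1161 normalized counts to 1572 and 1594 (log2 fold change 0.41, adjusted p = 0.0071 in limma). RAN, the GTPase that loads exportins, fell from 12467 and 13108 to 11003 and 10755.5, and XPO1, the main exportin of proteins, fell by 0.18 on the log2 scale (adjusted p = 0.0468 in limma). The share called, 18.8%, was near the 14.1% of all genes. The count of 3 became 1 without siHNF4A replicate 1 and 1 without siHNF4A replicate 2. SAFB2 was called with any 1 library left out (adjusted p up to 0.0479 in limma), whereas RAN was called only without control replicate 1 and XPO1 only without control replicate 2.

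The silencing complex and its deadenylation partners shorten and remove target mRNAs. Of 34 such genes, all tested, 2 rose and 5 fell, 20.6% against 14.1% of all genes, and the median log2 fold change was -0.11. CNOT6, a deadenylase subunit of the CCR4-NOT complex, had 2979 and 2724 normalized counts in the control and 1780 and 1647 in the knockdown. This was the largest change of the list, a fall of 0.73 on the log2 scale with a standard error of 0.077 (adjusted p = 0.00045 in limma), and 60.1% of the control mean was left. CNOT9 (listed as RQCD1), a further CCR4-NOT subunit, fell by 0.31, and the decapping factor DCP1A fell by 0.55. DCP1A had 738 and 951 in the control, which differ widely, and 604 and 545 in the knockdown. HSP90AA1, a chaperone that helps load Argonaute, rose by 0.23, and PAN2, a subunit of a further deadenylase, rose from 261 and 222 to 310 and 425 (adjusted p = 0.0449 in limma). CNOT6 was called with any 1 library left out (adjusted p up to 0.00382 in limma). HSP90AA1 was not called without either siHNF4A library, nor CNOT9 without siHNF4A replicate 1. DCP1A was at -0.36 without control replicate 2 and PAN2 at 0.36 without siHNF4A replicate 2, and neither was called when either of these 2 libraries was left out. The count of 7 became 4 without siHNF4A replicate 1 and 2 without siHNF4A replicate 2, and 4 after quantile normalization.

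Other proteins that bind or sense double-stranded RNA formed a list of 25 genes, all tested, of which 1 rose and 3 fell (16.0%, against 14.1% of all genes), with a median log2 fold change of -0.0045. PNPT1, a mitochondrial polynucleotide phosphorylase, fell from 2478 and 2572 normalized counts to 1870.0 and 1951 (log2 fold change -0.40, adjusted p = 0.0050 in limma). The helicase DHX9 fell by 0.20, and ZC3HAV1, an antiviral RNA-binding protein, fell by 0.24 (adjusted p = 0.0340 and 0.0477 in limma). PNPT1 was called with any 1 library left out (adjusted p up to 0.0374 in limma), whereas DHX9 and ZC3HAV1 were not called with any 1 left out or after quantile normalization (0.174 and 0.0975). ZC3HAV1 was at -0.16 without siHNF4A replicate 1. The count of 4 became 2 without control replicate 1, 2 without control replicate 2, 1 without siHNF4A replicate 1 and 1 without siHNF4A replicate 2, and 2 after quantile normalization.

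The other eIF2 kinases, the eIF2 and eIF2B subunits and their regulators stand on the PKR side. Of 15 such genes, all tested, 1 rose and 2 fell (20%, against 14.1% of all genes), with a median log2 fold change of -0.050. EIF2S1, the eIF2 alpha subunit that PKR phosphorylates, had 4539 and 4499 normalized counts in the control and 3728 and 3999 in the knockdown. EIF2S1 fell by 0.23 on the log2 scale (adjusted p = 0.0383 in limma), and EIF2B5, the catalytic subunit of the exchange factor, fell by 0.30 (adjusted p = 0.0442). Both calls were lost when any 1 of the 4 libraries was left out (EIF2S1 0.0620 to 0.237, EIF2B5 0.0923 to 0.173) and after quantile normalization (0.0819 and 0.0797). DNAJC3, a chaperone known to inhibit PKR and the related kinase PERK, rose from 5196 and 5381 to 6342 and 6787 (log2 fold change 0.31, adjusted p = 0.0083 in limma). The count of 3 became 1 without siHNF4A replicate 1, 0 without siHNF4A replicate 2 and 1 after quantile normalization; without siHNF4A replicate 2, 5 of the 15 had an unadjusted p under 0.05 in limma.

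ATF4 is the transcription factor made when eIF2 alpha is phosphorylated, and its target genes read out that pathway. Of 31 symbols, ATF4 included, 28 were tested, 2 rose and 4 fell (21.4%, against 14.1% of all genes), with a median log2 fold change of -0.060. XPOT, a tRNA exportin, fell by 0.36, the cystine transporter SLC7A11 by 0.56, and the mitochondrial folate enzyme MTHFD2 by 0.26. SLC7A11 had 2119 and 2286 normalized counts in the control and 1266 and 1766 in the knockdown, where the libraries differ widely. Without siHNF4A replicate 1 it was at -0.32 and not called (adjusted p = 0.0811 in limma), and it was not called in the robust fit (0.0525). PHGDH, the first enzyme of serine synthesis, rose from 307 and 328 to 477 and 435 (adjusted p = 0.0181 in limma), and PCK2, a mitochondrial carboxykinase, rose from 256 and 246 to 356 and 363 (adjusted p = 0.0230). XPOT was not called without siHNF4A replicate 2, nor PHGDH, PCK2 and MTHFD2 without either siHNF4A library, and PCK2 and MTHFD2 were not called without control replicate 2. The list held called genes in both directions. The count of 6 became 1 without siHNF4A replicate 1 and 1 without siHNF4A replicate 2.

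**Figure D3:**
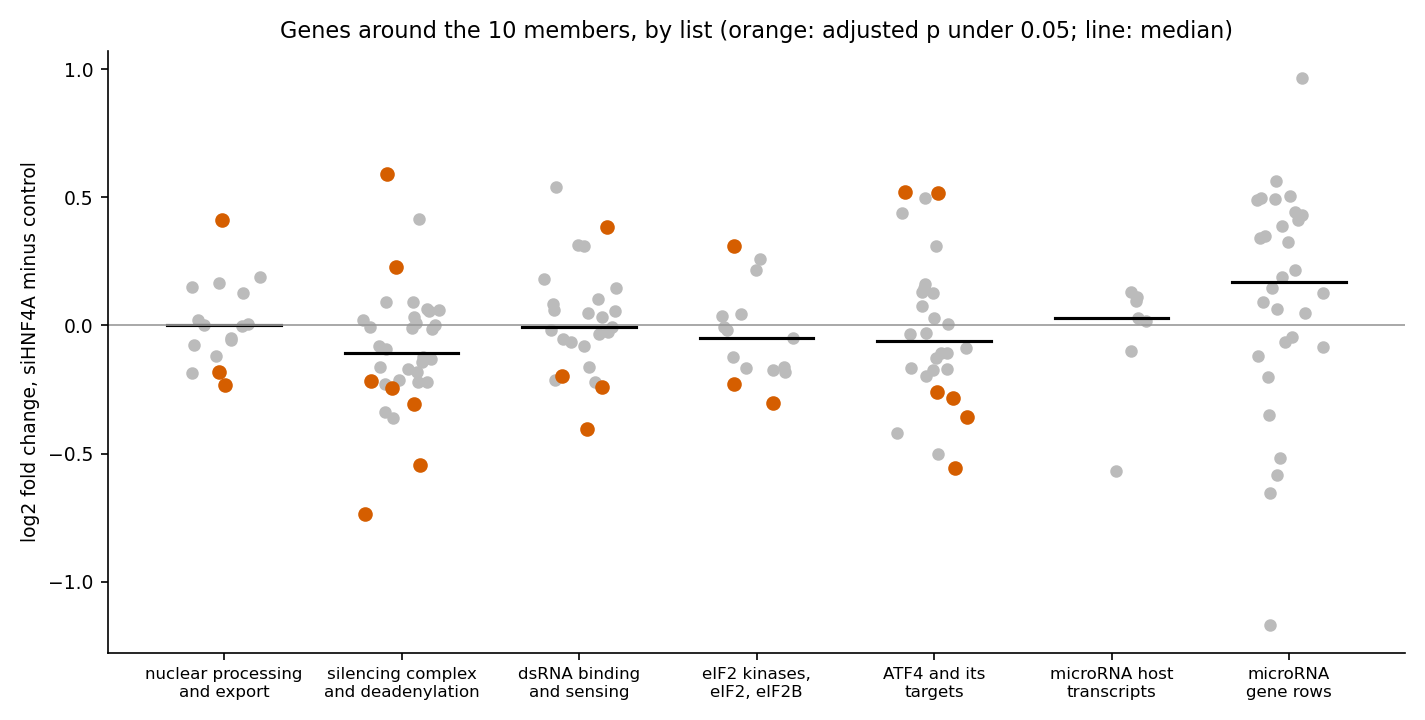
Log2 fold change of every tested gene (vertical axis, siHNF4A minus control), in columns for the 7 lists around the members; orange points passed the threshold, grey points did not, and lines mark medians. The medians lie between -0.11 and 0.17, and the 5 lists of protein-coding genes each hold orange points on both sides of 0.

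Transcripts from which microRNAs are cut were examined last. Of 27 non-coding host transcripts 16 had a row and 7 were tested, and 0 of the 7 were called or had an unadjusted p under 0.05 in limma, beside 14.1% of all genes called. MIR17HG, the host of the miR-17-92 cluster, had 58.9 and 35.6 normalized counts in the control and 30.4 and 30.8 in the knockdown (log2 fold change -0.57, adjusted p = 0.291 in limma). Leaving out control replicate 1 gave -0.21, and leaving out control replicate 2 gave -0.93. MIR22HG had 129 and 170.3 in the control and 171 and 154 in the knockdown. The table also lists 239 microRNA genes by name, of which 30 were tested. Most of the 30 were low: 7 averaged 50 or more normalized counts, as did 12111 of the 15577 genes tested. None of the 30 was called, again beside 14.1% of all genes, 3 had an unadjusted limma p under 0.05, and the list had a median log2 fold change of 0.17. MIR663A had the smallest p, with 389 and 345 normalized counts in the control and 467 and 491 in the knockdown (adjusted p = 0.0550 in limma), and it was called without control replicate 1 (0.0312), which made the count 1. MIR3648 had 85.5 and 84.9 in the control and 121 and 119.6 in the knockdown. Mature microRNAs were not measured by this assay.

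The neighbours of PRKRA on chromosome 2 were compared, taking from the RefSeq table the nearest 5 genes on each side that have a row. Of these 10 neighbours 2 were called higher and none lower, beside 6.02% of all genes tested that were called higher. The count includes OSBPL6, which passed the filter through 1 group only, as did PJVK, and with a mean of at least 50 it was 1 of 7. OSBPL6, an oxysterol-binding protein gene and the nearest row before PRKRA, had 9.01 and 10.3 normalized counts in the control and 29.5 and 35.5 in the knockdown. Its control mean of 9.66 is below the filter of 10, so it was tested only through its higher knockdown values, and its log2 fold change of 1.65 is a description. IFT70A (listed as TTC30A), an intraflagellar transport gene with a near-identical relative beside it, rose from 188 and 172 to 282 and 304 (log2 fold change 0.70, adjusted p = 0.0110 in limma). That relative, IFT70B (listed as TTC30B), had 252 and 224 in the control and 290 and 266 in the knockdown, so the values of both are uncertain where reads were not separated. OSBPL6 was not called without either siHNF4A library, nor IFT70A without siHNF4A replicate 2. The count of 2 became 1 without siHNF4A replicate 1 and 0 without siHNF4A replicate 2, where 2 of the 10 had an unadjusted p under 0.05 in limma.

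The gene next after PRKRA, PJVK (listed as DFNB59), had 7.25 and 12.6 normalized counts in the control and 25.9 and 11.7 in the knockdown, and its groups overlapped. Its control mean of 9.93 is also below the filter of 10, so its values are a description too. FKBP7, an endoplasmic reticulum isomerase, had 35.3 and 27.9 in the control and 23.6 and 19.5 in the knockdown. PLEKHA3, a Golgi lipid-binding protein, had 332 and 459 in the control and 323 and 390 in the knockdown. FKBP7 and PLEKHA3 were not called. TTN and TTN-AS1, which overlap each other, stood at 99.5% and 100.7% of the control mean. RBM45, PDE11A and IFT70B, before PRKRA, were not called either, with log2 fold changes of -0.15, -0.47 and 0.23. RBM45 was at -0.059 without control replicate 1 and -0.25 without control replicate 2, PDE11A at -0.30 without siHNF4A replicate 2 and IFT70B at 0.14 without control replicate 2.

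**Figure D4:**
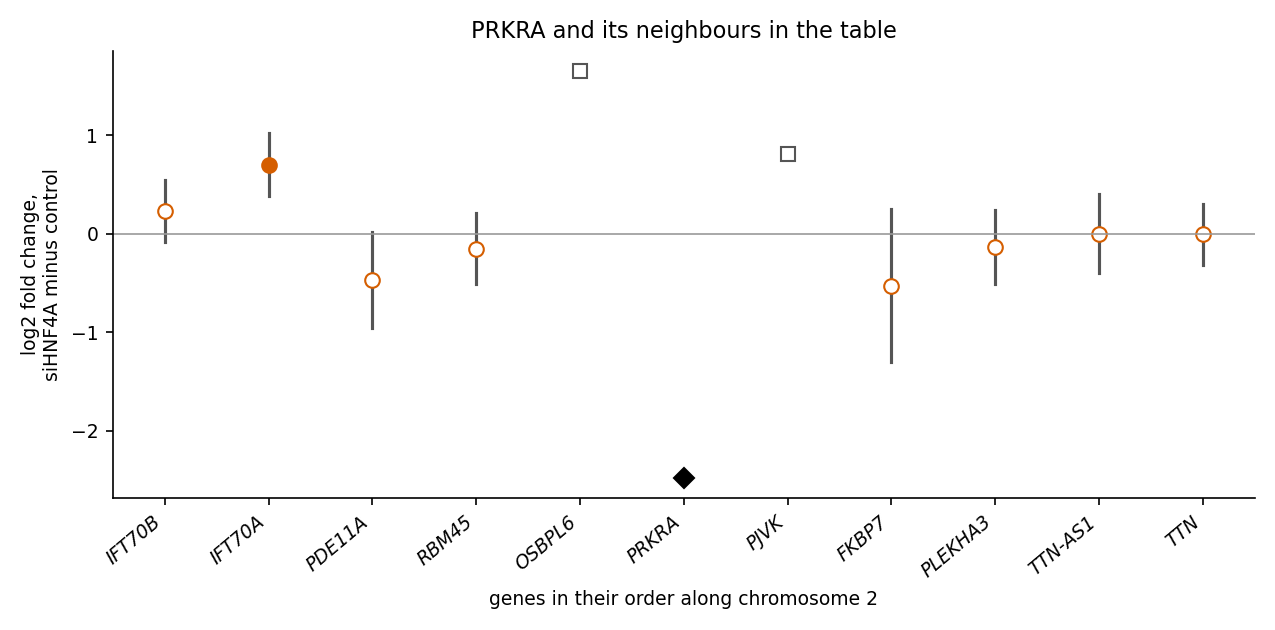
Log2 fold change (vertical axis, siHNF4A minus control) of PRKRA, a diamond, and of the 5 nearest genes in the table on each side, in their order along chromosome 2. Circles have 95% intervals from limma and are filled where they passed the threshold (IFT70A, at 0.70), grey squares without an interval are OSBPL6 and PJVK, which passed the filter through 1 group only, and PRKRA, which was chosen for its fall, is at -2.48.

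The genes whose pattern over the 4 libraries was most like that of PRKRA were found by the Euclidean distance between log2 profiles centred on their own mean, among genes averaging 100 or more normalized counts. The nearest was HNF4A at a distance of 0.53, then KIF26A at 0.63, MICB at 0.79, SLC7A9 at 0.83 and EMC7 at 0.86. EMC7, a subunit of a membrane protein insertion complex, had 1038 and 1071 normalized counts in the control and 372 and 314 in the knockdown. These distances rest on 4 libraries only and use the fall that PRKRA was chosen for, and the first 3 genes come in the order of their falls.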

How the data were processed

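RNA-seq of total RNA from ESO26 was read from 1 table in which the authors deposited normalized counts, a signal value per gene symbol and library. The counting program, annotation, strand use and normalization are not given in the sources used here. The submitters' processing notes name hg19, Bowtie, Bowtie2, Trim Galore, Picard and MACS2, without saying which served the RNA-seq. The values are fractional and no count model was used. Libraries were grouped by title.

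The groups were compared in limma 3.58.1 (R 4.3.3), with moderated variances that follow mean level and no replicate term. The scale was log2(normalized count + 1), which understates changes of low genes. Genes with a mean of at least 10 were tested (15577). Benjamini-Hochberg adjustment ran over all of them. The fit was tested on simulated data. Alternatives were pseudocounts of 0.5 and 5, no filter or a mean of at least 50, quantile and median-of-ratios scaling, no trend, a robust fit, a replicate block and leaving out each library.

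The members and lists were chosen with earlier results of these data known. Named genes are the members, HNF4A, up to 3 called genes in each direction per list (the 2 with the smallest p where fewer than 2 were called), the neighbours of PRKRA and the 5 genes most like it. DICER1-AS1, MAP3K12, POLR1C and the marker genes are named for overlap or as markers. Older symbols were matched through the lists and RefSeq synonyms. Promoter windows come from RefSeq (GRCh38.p14). The peak lists and the 4C libraries were not used here. One called gene of the double-stranded RNA list is not reported here by name.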

Additional observations from a re-analysis of the deposited data

How the results depend on the processing

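The log2 fold change of PRKRA stayed between -2.53 and -2.42 over all 13 alternatives. Without the filter 726 genes were called in place of 2202, and the counts were 0 of the partners, 1 of nuclear processing, 2 of silencing, 1 of double-stranded RNA binding, 0 of the eIF2 list, 0 of the ATF4 list and 0 of the neighbours. At an unadjusted p under 0.05 that fit held 3 partners, 5 eIF2 genes, 10 ATF4 genes and 2 neighbours, and its adjustment ran over 30247 genes. Without the variance trend 0 genes were called in the whole table (3524 with an unadjusted p under 0.05) and 0 in each of these groups (1 of the partners and between 1 and 9 of each other group at that unadjusted p). After quantile normalization 1 partner, 4 silencing, 2 double-stranded RNA and 1 eIF2 genes were called. With a mean of at least 50, 1 microRNA gene (MIR663A) was called and 1 neighbour, as OSBPL6 was no longer tested.

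With each library left out, where the lone library of its group is assumed to vary like the other group, called genes numbered 1013 to 2449, partners 1 to 2, nuclear processing 1 to 2, silencing 2 to 8, double-stranded RNA 1 to 2, eIF2 0 to 2, ATF4 1 to 8, microRNA genes 0 to 1 and neighbours 0 to 2. Signs turned for some genes that were not called: DROSHA ranged from -0.028 to 0.26, DGCR8 from -0.13 to 0.065, MIR22HG from -0.066 to 0.33, PLEKHA3 from -0.37 to 0.097, TTN-AS1 from -0.19 to 0.18 and TTN from -0.084 to 0.066. DGCR8 also turned to 0.0091 after quantile normalization, and TTN-AS1 to 0.0017 after median-of-ratios rescaling. The cause of these changes was not tested. A value called weaker below kept its direction but lost the call. Without the filter (21 weaker values) and without the variance trend (25) the log2 fold changes themselves did not move. Alternatives with all 4 libraries gave 437 values for 49 named genes. Of these, 373 kept their direction and their side of the threshold, or moved by less than the spread between replicates, and 59 were weaker. With 1 library left out, 133 of 196 values did so, 54 were weaker and 8 changed sign.

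The replicate block gave 2428 calls, and 2 of the 9 partners. DICER1 was not called with it (adjusted p = 0.0578 in limma), nor were XPO1 (0.0564) and EIF2B5, just above the threshold. Deviations of libraries sharing a number had a Pearson correlation of -0.019 across 15577 genes, and the samples were treated as unpaired. The planned distance of peaks to each gene was not run, as no hg19 annotation was used here.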
